A study of Mus musculus with 15 samples.

Results

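Glutamate and GABA are the main excitatory and inhibitory transmitters of the forebrain, and the genes described here encode the subunits of their receptors. The genes were chosen by symbol alone, as those of AMPA (Gria), kainate (Grik), NMDA (Grin), metabotropic glutamate (Grm), GABA-A (Gabr) and GABA-B (Gabbr) subunits. They numbered 37 of 18193 genes with a probe set of a single symbol, carried by 78 of 45037 probe sets, and 8 further genes that the same symbols cover were not analysed here. They comprised 4 AMPA, 5 kainate, 6 NMDA, 6 metabotropic glutamate, 15 GABA-A and 1 GABA-B genes. Each gene was read from its brightest probe set, and 29 of the 37 were bright enough to be tested. Probe sets were tested if their mean over the 15 arrays was in the upper 60%.

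The series measured total RNA of mouse forebrain on 15 Affymetrix mouse whole-genome arrays, with 5 arrays in each of 3 groups. EPO-HI 11 to 15 had erythropoietin at 5 U per g into the peritoneum 1 h ahead of hypoxic ischemia, VEH-HI 6 to 10 had vehicle 1 h ahead of hypoxic ischemia, and VEH-Sham 1 to 5 had vehicle 1 h ahead of sham surgery. Hypoxic ischemia is a combined loss of oxygen and blood flow, and erythropoietin is the hormone of red blood cell formation, studied as a neuroprotective agent. The sources used here do not give strain, age, sex or the time between injury and sampling, and no group had erythropoietin with sham surgery. The labels do not say that the arrays came from separate animals, so p-values reflect array-to-array spread that could be technical.

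AMPA, kainate and NMDA receptors are tetrameric cation channels that carry fast excitation, and the GluA2 subunit from Gria2 keeps AMPA receptors from passing calcium. Metabotropic glutamate receptors act through G proteins: Grm5 belongs to the group that raises intracellular calcium, while Grm2, Grm3, Grm4, Grm7 and Grm8 inhibit adenylyl cyclase and mostly damp transmitter release. GABA-A receptors are pentameric chloride channels whose alpha subunit sets much of their location and pharmacology, and GABA-B receptors are G protein-coupled dimers. Excess glutamate acting on glutamate receptors is a textbook route of neuronal injury when the brain lacks oxygen and blood.

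The promoter windows of the genes with the 2 smallest p-values (Gabra2 and Gabra5) and the largest difference (Grm2) between VEH-HI and VEH-Sham are shown, so that the start regions of the genes with the clearest and the largest differences can be read. The windows are RefSeq sequences of build GRCm38.p6, reach from 250 bases before to 50 bases after the annotated start, and are written 5′ to 3′ on the gene's strand. They lie at chr5:71095800-71096099 for Gabra2, chr7:57510010-57510309 for Gabra5 and chr9:106656060-106656359 for Grm2, all on the minus strand. Capitals mark GGGCGG (the GC box) on either strand, and TGACG and TGANTCA would be marked too but had no match in these 3 windows.
Gabra2: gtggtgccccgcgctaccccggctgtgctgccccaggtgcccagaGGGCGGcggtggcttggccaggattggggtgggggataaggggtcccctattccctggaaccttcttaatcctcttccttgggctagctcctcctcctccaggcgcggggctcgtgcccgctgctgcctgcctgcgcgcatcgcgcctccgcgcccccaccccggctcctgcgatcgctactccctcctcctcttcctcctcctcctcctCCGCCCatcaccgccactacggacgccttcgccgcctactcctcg
Gabra5: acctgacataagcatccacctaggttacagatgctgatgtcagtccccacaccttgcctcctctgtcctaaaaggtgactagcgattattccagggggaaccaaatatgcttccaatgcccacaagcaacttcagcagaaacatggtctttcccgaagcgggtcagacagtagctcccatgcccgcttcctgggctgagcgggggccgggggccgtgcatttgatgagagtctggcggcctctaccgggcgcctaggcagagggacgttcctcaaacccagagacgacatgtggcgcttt
Grm2: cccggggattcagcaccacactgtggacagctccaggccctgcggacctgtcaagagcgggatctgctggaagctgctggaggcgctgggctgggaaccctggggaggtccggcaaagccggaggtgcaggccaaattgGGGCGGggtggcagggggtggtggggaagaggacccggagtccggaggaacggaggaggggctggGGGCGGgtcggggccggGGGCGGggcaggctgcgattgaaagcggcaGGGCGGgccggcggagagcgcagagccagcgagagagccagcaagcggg
The Gabra2 window held 2 GC boxes and had a GC content of 70.0%, the Grm2 window held 4 and had 72.0%, and the Gabra5 window held none and had 56.7%. Windows were found for 28 of the 37 genes, 35 windows in all. GGGCGG occurred on either strand in 17 of them (48.6%), against 35.7% of 32851 windows of all genes. TGACG, the core of the cyclic AMP response element, occurred in 4 (11.4%), against 20.8% of all windows, and TGANTCA, the AP-1 motif, in 2 (5.71%), against 7.81%. TATAAA occurred in 4 (11.4%), against 13.6%, and the median GC content was 59.7%, against 52.7%. These matches describe the letters of the windows and say nothing of which factors bind there.

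The VEH-Sham arrays did not form 1 set. Median intensity was 39.2 to 44.4 in the 10 hypoxic ischemia arrays, 39.8 in VEH-Sham 5, and 55.3 to 57.9 in VEH-Sham 1 to 4, and over all tested probe sets VEH-Sham 5 correlated at 0.962 to 0.979 with the hypoxic ischemia arrays and at 0.946 to 0.954 with VEH-Sham 1 to 4. Differences against sham are therefore given with all 5 sham arrays and against VEH-Sham 5 alone. What sets VEH-Sham 1 to 4 apart was not tested, and for these 4 arrays it cannot be told apart from the sham condition. All 12 neuron markers were bright enough to be tested, as were 7 of 9 forebrain markers. Of 6 cerebellum markers 4 (Cbln1, Calb1, Pcp2 and En2) were bright enough too, while Cbln3 and Gabra6, the alpha subunit gene of cerebellar granule cells, were too dim.

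The receptor genes were mostly lower after hypoxic ischemia with vehicle than after sham surgery with vehicle. Of the 29 tested genes, 14 fell and 0 rose in VEH-HI (limma, adjusted p under 0.05), against a background of 11.5% of all 13168 tested genes called lower and 11.9% called higher. All 6 metabotropic glutamate receptor genes fell, as did 3 of 4 AMPA, 1 of 5 kainate, 0 of 3 NMDA, 4 of 10 GABA-A and 0 of 1 GABA-B genes. The median difference of the 29 genes was -0.36 on the log2(intensity + 16) scale, beside -0.02 over all tested genes. Against VEH-Sham 5 alone the median was -0.24, beside 0.00 over all tested genes. Of the 29 genes 24 lay below that array, beside 6527 of 13168 over all tested genes. In RNA of whole tissue, fewer cells of a type and less RNA per cell cannot be told apart.

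No receptor gene was called in the fits that set VEH-Sham 1 to 4 apart. With VEH-Sham 5 as the only sham array, or with the array set as a block, 0 of the 29 genes passed (limma, background of lower calls 0.0% in both fits). These 2 fits give the same differences, since the block term leaves VEH-Sham 5 as the only sham array compared. Without VEH-Sham 5, 18 fell and 1 (Gabrb1) rose, against a background of 18.9% and 17.0%. Without VEH-HI 6, 8 fell, and 9 fell without VEH-Sham 3. Quantile normalization ended the calls of Grik4, Gabrd, Gabrp and Grm8. Of the 14 genes called lower, 13 had a VEH-HI mean below VEH-Sham 5, and 11 had VEH-Sham 5 among the VEH-HI values. Neither was counted over all genes called lower. Scaling the arrays to equal medians moved the median over all genes to 0.27 and left 3 members lower (Gabra2, Grm2 and Grm4) and 2 higher (Gabrb1 and Grik5), against 2.87% lower and 33.6% higher over all genes. The members' median relative to that of all genes was -0.34 as deposited, -0.37 after quantile normalization and -0.33 with equal medians.

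**Figure D1:**
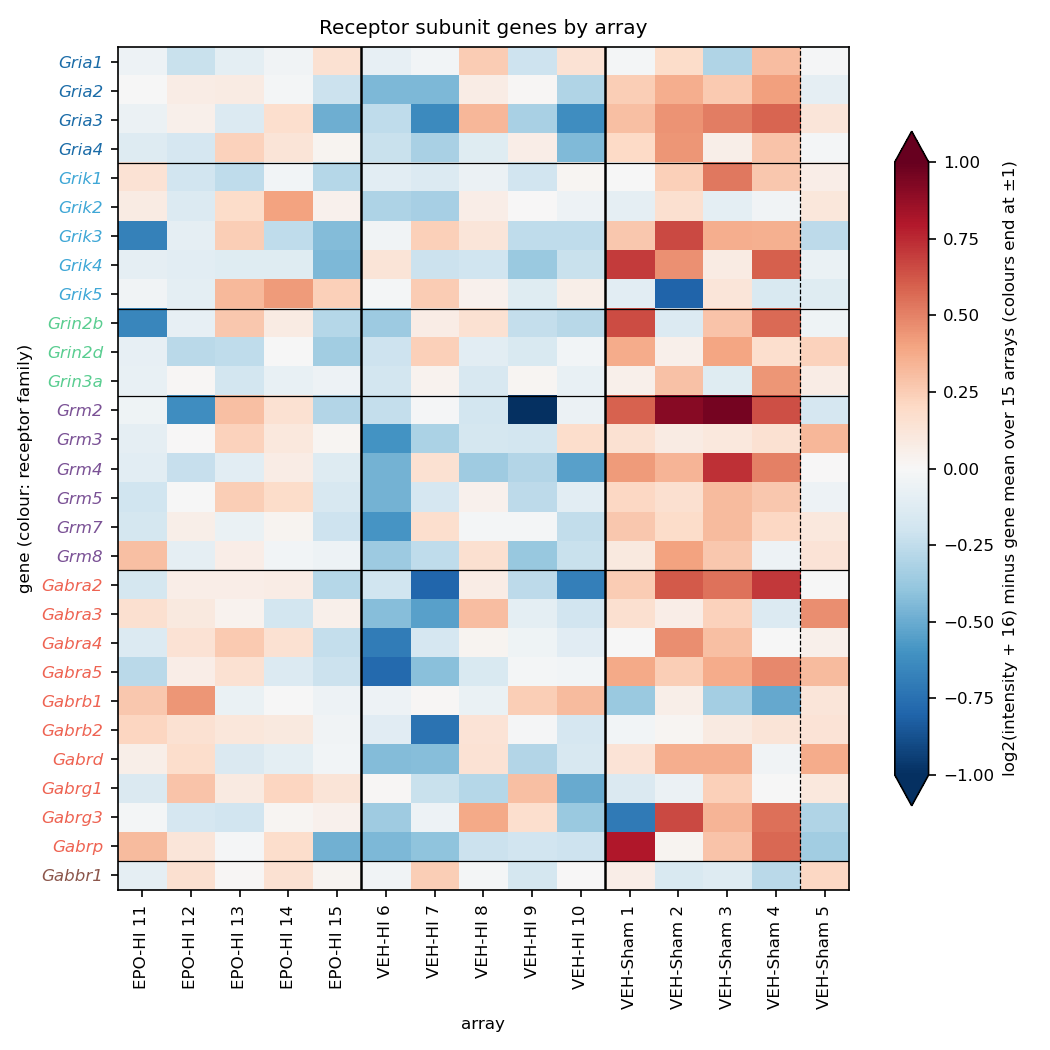
The 29 tested receptor genes (rows, by family) on each of the 15 arrays (columns), coloured by log2(intensity + 16) minus the gene's mean over all arrays, with colours ending at 1 and -1. The mean over the 29 genes was 8.14 to 8.33 in EPO-HI arrays, 7.99 to 8.28 in VEH-HI arrays, 8.33 in VEH-Sham 5 (right of the dashed line) and 8.44 to 8.52 in VEH-Sham 1 to 4.

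The AMPA subunit genes fell except for Gria1. Gria3, which encodes GluA3, read 8.45, 8.06, 9.03, 8.37 and 8.08 in VEH-HI 6 to 10, against 8.99, 9.14, 9.21 and 9.28 in VEH-Sham 1 to 4 and 8.82 in VEH-Sham 5. VEH-HI 8 was the highest of its group and overlapped the sham arrays. The difference was -0.69 (SE 0.16, n = 5 each, limma adjusted p = 0.00506) and -0.42 against VEH-Sham 5. Gria2, which encodes the calcium-limiting GluA2, read 10.25, 10.25, 10.76, 10.70 and 10.39 in VEH-HI, against 10.94, 11.06, 10.96 and 11.10 in VEH-Sham 1 to 4 and 10.60 in VEH-Sham 5. Every VEH-HI array lay below VEH-Sham 1 to 4, and VEH-Sham 5 lay among the VEH-HI arrays. The Gria2 difference was -0.46 (SE 0.11, limma adjusted p = 0.00807), and -0.13 against VEH-Sham 5. Gria4, which encodes GluA4, read 8.34, 8.24, 8.45, 8.63 and 8.12 in VEH-HI, against 8.77, 9.00, 8.62 and 8.85 in VEH-Sham 1 to 4 and 8.54 in VEH-Sham 5. Its difference was -0.40 (SE 0.11, limma adjusted p = 0.0174), and -0.19 against VEH-Sham 5. Gria1, which encodes GluA1, averaged 8.93 ± 0.18 in VEH-HI and 8.95 ± 0.23 in VEH-Sham (SD, n = 5 each). Its difference was -0.01 (limma adjusted p = 0.940), and 0.03 against VEH-Sham 5.

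Whether GluA2 changed against its partners was read from the log2 ratio of Gria2 to the mean of Gria1, Gria3 and Gria4. That ratio differed by -0.09 between VEH-HI and VEH-Sham, with an exact two-sided permutation p of 0.310 (0.524 adjusted over the 6 ratio tests run, smallest possible p 0.00794). Second probe sets did not all repeat these values. Both other tested Gria2 probe sets and both of Gria4 were lower in VEH-HI, 1 of each past the threshold, while the other Gria3 probe set differed by -0.06 and did not pass (limma adjusted p = 0.765).

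Of the kainate receptor genes, Grik4 alone fell in VEH-HI. Grik4, which encodes the auxiliary-type subunit GluK4, read 6.41, 6.07, 6.08, 5.91 and 6.06 in VEH-HI, against 6.98, 6.74, 6.36 and 6.88 in VEH-Sham 1 to 4 and 6.21 in VEH-Sham 5. VEH-HI 6 overlapped VEH-Sham 3 and VEH-Sham 5. The difference was -0.53 (SE 0.16, limma adjusted p = 0.0241), and -0.11 against VEH-Sham 5. Grik1 differed by -0.31 (limma adjusted p = 0.0508), Grik3 by -0.31 (0.168), Grik2 by -0.14 (0.417) and Grik5 by 0.25 (0.212), and none of these 4 passed. Against VEH-Sham 5 they differed by -0.16, 0.23, -0.24 and 0.16 in that order, so Grik3 changed sign.

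No tested NMDA receptor gene passed in VEH-HI when read from its brightest probe set, while a second probe set of Grin2b and of Grin3a did. Grin2d, which encodes GluN2D, a subunit of immature and of inhibitory neurons, read 7.02, 7.47, 7.12, 7.07 and 7.20 in VEH-HI, against 7.59, 7.28, 7.62 and 7.39 in VEH-Sham 1 to 4 and 7.46 in VEH-Sham 5. The groups overlapped through VEH-HI 7, and the difference was -0.29 (SE 0.12, limma adjusted p = 0.0710), and -0.28 against VEH-Sham 5. Grin2b differed by -0.40 (limma adjusted p = 0.0990), with 1 of its 3 other tested probe sets past the threshold in the same direction. Grin3a differed by -0.22 (limma adjusted p = 0.124), with 1 of its 2 other tested probe sets past the threshold at -0.46 (limma adjusted p = 0.0214). Against VEH-Sham 5 Grin2b differed by -0.09 and Grin3a by -0.15. Grin2a, which encodes the GluN2A subunit of mature synapses, was too dim for the test, averaging 5.24 ± 0.43 in VEH-HI and 4.65 ± 0.40 in VEH-Sham. The log2 ratio of Grin2a to Grin2b differed by 0.99 between VEH-HI and VEH-Sham and did not pass (exact two-sided permutation p = 0.0238, 0.0714 adjusted over the 6 ratio tests). Against VEH-Sham 5 alone the ratio differed by 0.03, and since Grin2a lay under the brightness limit, nothing is read from it.

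All 6 tested metabotropic glutamate receptor genes fell in VEH-HI, and each of their means was below VEH-Sham 5 as well. Grm4, which encodes the presynaptic receptor mGlu4, read 6.77, 7.40, 6.89, 6.95 and 6.70 in VEH-HI, against 7.67, 7.58, 7.98 and 7.75 in VEH-Sham 1 to 4 and 7.25 in VEH-Sham 5. Every VEH-HI array lay below VEH-Sham 1 to 4, and VEH-HI 7 lay above VEH-Sham 5. The difference was -0.70 (SE 0.14, limma adjusted p = 0.00268), and -0.31 against VEH-Sham 5. Grm2, which encodes the presynaptic autoreceptor mGlu2, read 6.47, 6.69, 6.53, 4.77 and 6.65 in VEH-HI, against 7.30, 7.62, 7.67 and 7.35 in VEH-Sham 1 to 4 and 6.54 in VEH-Sham 5. VEH-HI 9 stood far below the other 4 arrays of its group, the farthest of which was 0.155 from VEH-Sham 5. The difference of -1.08 (SE 0.30, limma adjusted p = 0.0146) became -0.71 without VEH-HI 9 (limma adjusted p = 0.0238), and it was -0.32 against VEH-Sham 5.

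Grm3 was lower on 4 of 5 VEH-HI arrays than on any sham array, and VEH-Sham 5 was its highest sham array. Grm3, which encodes mGlu3, a receptor of both neurons and astrocytes, read 8.81, 9.08, 9.23, 9.22 and 9.58 in VEH-HI, against 9.56, 9.49, 9.51 and 9.56 in VEH-Sham 1 to 4 and 9.73 in VEH-Sham 5. VEH-HI 10 alone overlapped the sham arrays. The difference was -0.38 (SE 0.11, limma adjusted p = 0.0191), and -0.55 against VEH-Sham 5. Grm5, which encodes mGlu5, read 9.40, 9.71, 9.92, 9.62 and 9.77 in VEH-HI, against 10.08, 10.04, 10.19 and 10.14 in VEH-Sham 1 to 4 and 9.83 in VEH-Sham 5. Its difference was -0.37 (SE 0.11, limma adjusted p = 0.0191), and -0.14 against VEH-Sham 5; its other probe set also fell. Grm7, which encodes the release-site receptor mGlu7, read 8.99, 9.74, 9.56, 9.56 and 9.33 in VEH-HI, against 9.85, 9.76, 9.89 and 9.79 in VEH-Sham 1 to 4 and 9.69 in VEH-Sham 5. VEH-HI 7 alone overlapped the sham arrays, and the difference was -0.36 (SE 0.11, limma adjusted p = 0.0268). Grm8, which encodes mGlu8, differed by -0.38 (limma adjusted p = 0.0465). Against VEH-Sham 5 the differences were -0.25 for Grm7 and -0.35 for Grm8.

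**Figure D2:**
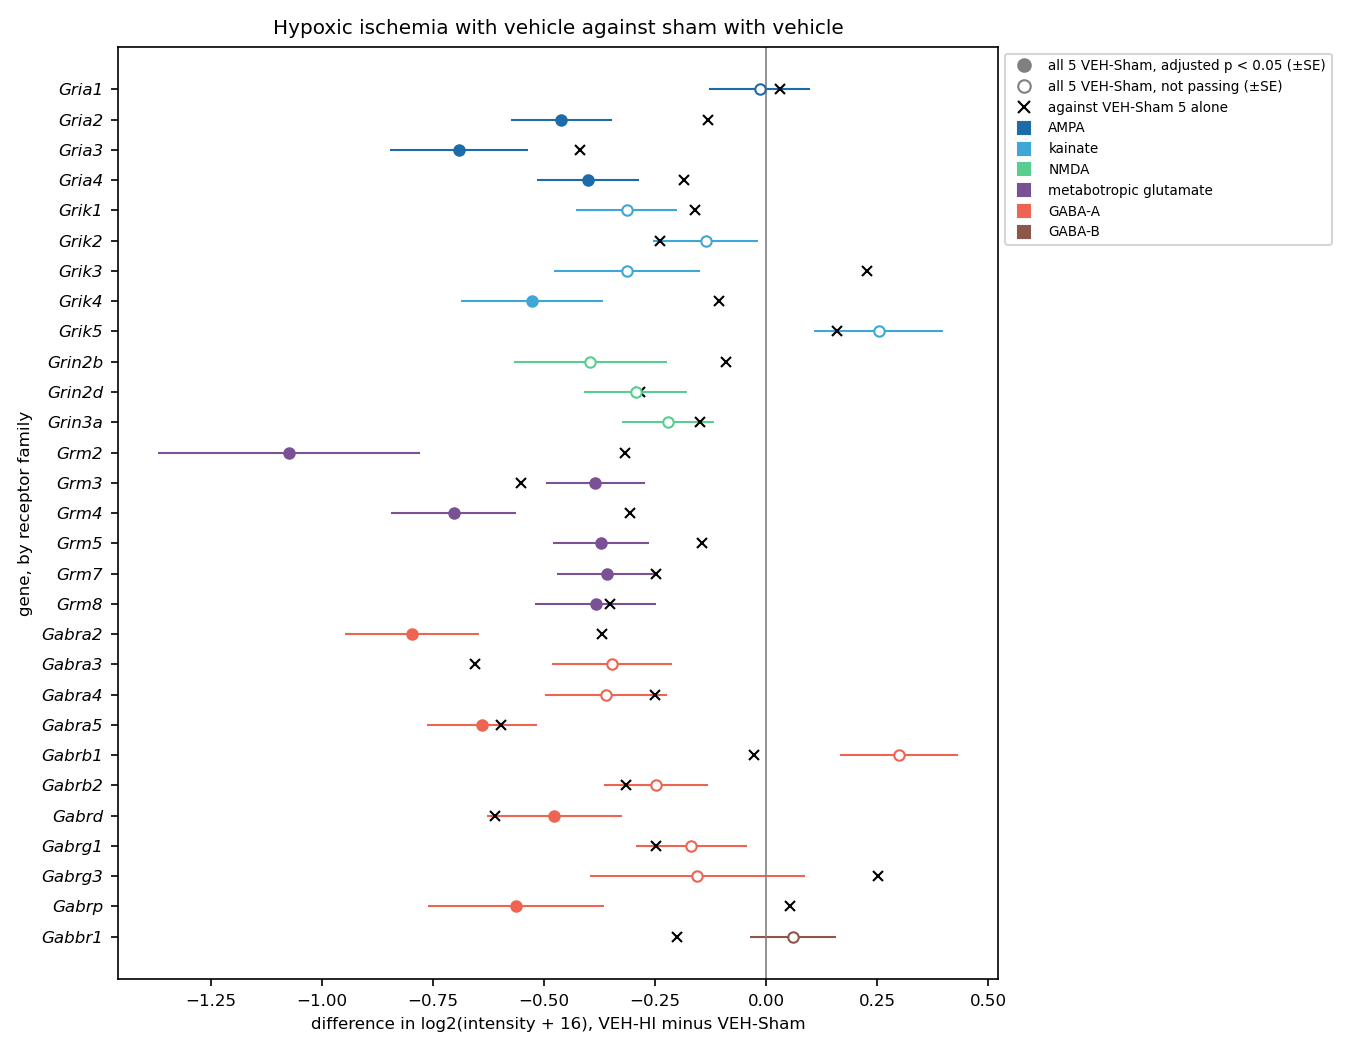
Difference in log2(intensity + 16) between VEH-HI and VEH-Sham for each tested gene, with its SE (n = 5 each). Filled circles passed the limma threshold and open circles did not. Crosses give VEH-HI minus VEH-Sham 5 alone, which lay below 0 for 24 of the 29 genes, beside 6527 of 13168 over all genes. After scaling to equal array medians 20 of the 29 differences were below 0.

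The GABA-A receptor genes that fell in VEH-HI encode the alpha-2, alpha-5, delta and pi subunits. Gabra2, which encodes the alpha-2 subunit of inhibitory synapses on the axon initial segment and elsewhere, read 9.56, 8.98, 9.84, 9.51 and 9.08 in VEH-HI, against 10.02, 10.38, 10.31 and 10.47 in VEH-Sham 1 to 4 and 9.76 in VEH-Sham 5. Every VEH-HI array lay below VEH-Sham 1 to 4, and VEH-HI 8 lay above VEH-Sham 5. The difference was -0.80 (SE 0.15, limma adjusted p = 0.00197), a 1.74-fold lower level on this scale, and -0.37 against VEH-Sham 5. The 3 other tested Gabra2 probe sets were also lower and did not pass.

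Gabra5 was the only one of the 14 genes whose VEH-HI arrays all lay below all 5 VEH-Sham arrays. How many of all genes showed such a gap was not counted. Gabra5, which encodes the alpha-5 subunit of mainly extrasynaptic receptors that are abundant in the hippocampus, read 9.15, 9.50, 9.77, 9.90 and 9.90 in VEH-HI, against 10.31, 10.17, 10.30 and 10.41 in VEH-Sham 1 to 4 and 10.24 in VEH-Sham 5. The difference was -0.64 (SE 0.12, limma adjusted p = 0.00225), a 1.56-fold lower level, and it was nearly as large against VEH-Sham 5, at -0.60. With equal array medians the difference was -0.32 and did not pass (limma adjusted p = 0.125). With VEH-Sham 5 as the only sham array, whose spread was then taken from the hypoxic ischemia groups, the limma adjusted p was 0.666. Gabrd, which encodes the delta subunit of extrasynaptic receptors, read 5.62, 5.63, 6.20, 5.76 and 5.90 in VEH-HI, against 6.20, 6.42, 6.43 and 6.03 in VEH-Sham 1 to 4 and 6.44 in VEH-Sham 5. VEH-HI 8 overlapped the sham arrays, and the difference was -0.48 (SE 0.15, limma adjusted p = 0.0296), and -0.61 against VEH-Sham 5. Gabrp, whose pi subunit is best known outside the brain, differed by -0.56 (limma adjusted p = 0.0448) and by 0.05 against VEH-Sham 5.

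The 6 other tested GABA-A genes did not pass in VEH-HI. Gabra3 differed by -0.35 (limma adjusted p = 0.0680) and by -0.66 against VEH-Sham 5, and its other probe set passed at -0.56 (limma adjusted p = 0.0213). Gabra4 differed by -0.36 (limma adjusted p = 0.0622), Gabrb2 by -0.25 (0.125), Gabrg1 by -0.17 (0.342) and Gabrg3 by -0.16 (0.674). Against VEH-Sham 5 these 4 differed by -0.25, -0.32, -0.25 and 0.25 in that order. Of the 4 other tested Gabrb2 probe sets all were lower and 1 passed at -0.43 (limma adjusted p = 0.0139). Gabrb1 differed by 0.30 (limma adjusted p = 0.104) and by -0.03 against VEH-Sham 5, while its 2 other tested probe sets differed by -0.24 and -0.19 with all sham arrays. Several GABA-A genes sit next to each other on chromosomes. Of the 3 adjacent pairs tested here, Gabra2 fell and Gabrg1 did not pass, Gabra5 fell and Gabrg3 did not pass, and neither Gabra4 nor Gabrb1 passed. Whether neighbours differed from each other was not tested. Gabbr1, which encodes the GABA-binding subunit of GABA-B receptors, read 10.56, 10.84, 10.57, 10.42 and 10.60 in VEH-HI, against 10.66, 10.44, 10.46 and 10.32 in VEH-Sham 1 to 4 and 10.80 in VEH-Sham 5. Its groups overlapped throughout, with a difference of 0.06 (SE 0.10, limma adjusted p = 0.682) that was -0.03 after quantile normalization and -0.20 against VEH-Sham 5.

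**Figure D3:**
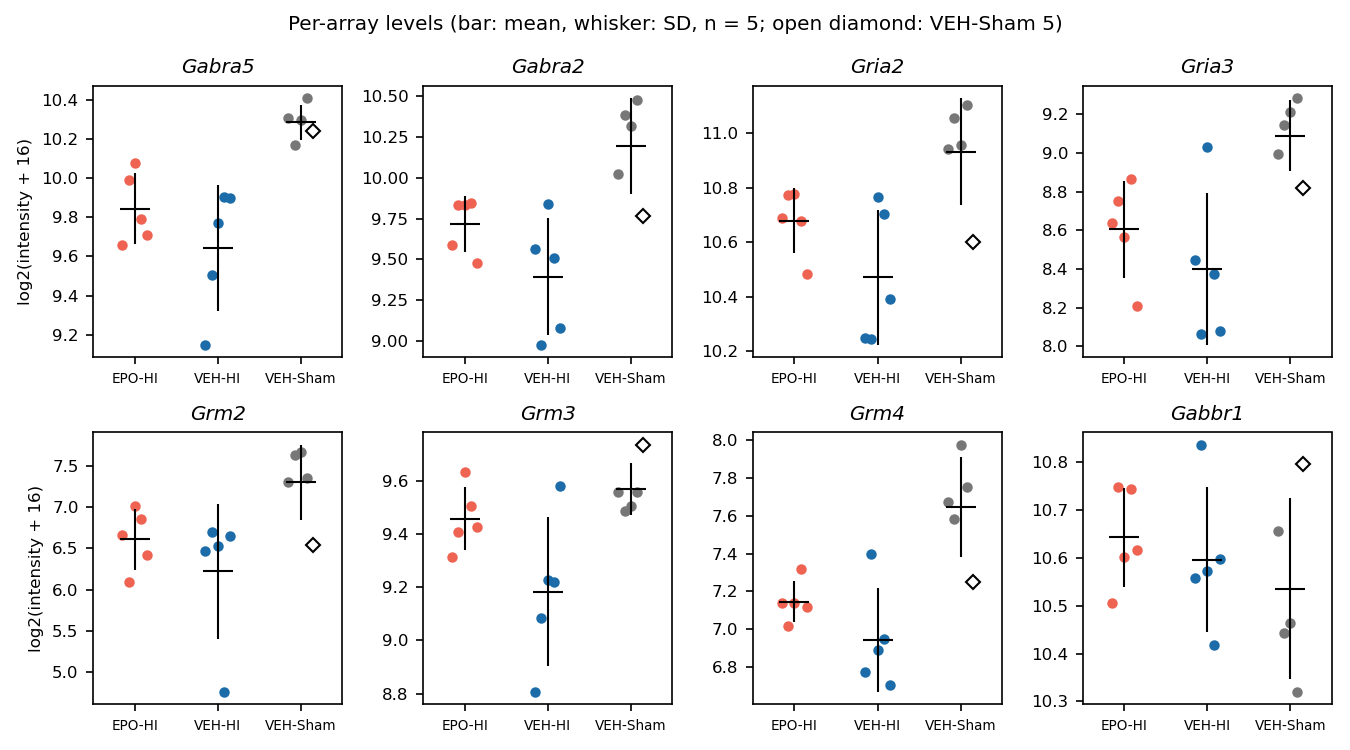
Level of 8 receptor genes on each array in log2(intensity + 16), by group, with the mean and SD (n = 5) and VEH-Sham 5 as an open diamond. Gabra5 was lower on every VEH-HI array than on every sham array. For Gabra2, Gria2, Gria3, Grm2 and Grm4, VEH-Sham 5 lay below VEH-Sham 1 to 4.

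The 8 dim genes were Gabra6, Gabre, Gabrq, Gabrr1, Gabrr2, Grin2a, Grin2c and Grin3b. Grin3b, the GluN3B subunit gene, was the one with the widest gap. It read 5.75, 4.56, 5.39, 5.66 and 4.57 in VEH-HI, against 6.17, 6.70, 6.49 and 6.62 in VEH-Sham 1 to 4 and 5.18 in VEH-Sham 5, so VEH-Sham 5 lay within the VEH-HI range. Gabre, the epsilon subunit gene, read 5.08, 4.80, 4.93, 5.06 and 5.14 in VEH-HI, against 5.64, 5.55, 5.53 and 5.92 in VEH-Sham 1 to 4 and 5.62 in VEH-Sham 5, with no overlap. When all probe sets were tested, Grin3b differed by -1.04 (limma adjusted p = 0.0246) and Gabre by -0.65 (limma adjusted p = 0.0337), and both were singled out after their values were seen.

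Some genes that work with these receptors changed in VEH-HI, and the direction of their counts depended on the scaling. Of 17 tested auxiliary glutamate receptor genes 4 fell and 0 rose, of 12 tested genes for inhibitory synapse anchors and GABA-B partners 2 fell and 1 rose, and of 13 tested transmitter transporter and synthesis genes 4 fell and 1 rose, beside 11.5% lower and 11.9% higher over all genes. With equal array medians the counts were 1 lower and 1 higher, 1 lower and 5 higher, and 0 lower and 4 higher. The shares over all genes were then 2.87% lower and 33.6% higher. The auxiliary genes that fell were Shisa7 (-0.94, limma adjusted p = 0.00581), the olfactomedins Olfm3 (-0.45, 0.00385) and Olfm1 (-0.45, 0.00819), and the delta-type glutamate receptor gene Grid1 (-0.43, 0.0306). Against VEH-Sham 5 alone the differences were -0.19 for Shisa7, -0.47 for Olfm3, -0.05 for Olfm1 and -0.32 for Grid1. Gabarap, which encodes a GABA-A receptor trafficking and autophagy protein, rose by 0.48 (limma adjusted p = 0.00151) and was 0.24 above VEH-Sham 5. Shisa7, which is in both lists, and Kctd8 (-0.41, limma adjusted p = 0.0317), a GABA-B auxiliary subunit gene, fell, and Kctd8 was at -0.37 against VEH-Sham 5. Slc6a13, a GABA transporter gene, rose by 0.56 (limma adjusted p = 0.0253) with all sham arrays, but was at -0.03 against VEH-Sham 5. The GABA-synthesising Gad1 (-0.28, limma adjusted p = 0.0210) and Gad2 (-0.42, 0.0312), the vesicular glutamate transporter gene Slc17a7 (-0.59, 0.0251) and the glutamate uptake gene Slc1a6 (-0.49, 0.0327) fell. Against VEH-Sham 5 these 4 differed by -0.18, -0.44, -0.47 and -0.53 in that order. With VEH-Sham 5 as the only sham array none of these genes passed.

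Markers of neurons, forebrain and glia were measured beside these changes. Their counts stand beside 11.5% of all tested genes called lower and 11.9% called higher in VEH-HI. Of 12 neuron markers, 0 fell and 1 rose in VEH-HI. Thy1 rose by 0.46 (limma adjusted p = 0.0427) with all sham arrays, but was only 0.01 above VEH-Sham 5. The median of the 12 was -0.05. That median was 0.27 with equal array medians and -0.25 after quantile normalization, where 11 of the 12 were below 0. Against VEH-Sham 5 it was -0.24, the same as for the receptor genes, and 11 of the 12 lay below that array. The summed intensity of the neuron markers was 26650 to 30129 in EPO-HI and 21330 to 31584 in VEH-HI. It was 32116 in VEH-Sham 5 and 26158 to 28943 in VEH-Sham 1 to 4. Of 9 tested microglia and macrophage markers 6 rose and 1 fell in VEH-HI, and their summed intensity was 2536 to 3716 in EPO-HI, 3116 to 4690 in VEH-HI, 2601 in VEH-Sham 5 and 2228 to 2758 in VEH-Sham 1 to 4. Of 6 tested astrocyte markers 4 rose and 0 fell, with sums of 10013 to 11016 in EPO-HI, 10003 to 11892 in VEH-HI, 9757 in VEH-Sham 5 and 7879 to 9606 in VEH-Sham 1 to 4. The median difference in VEH-HI was 0.38 for astrocyte markers and 0.58 for microglia and macrophage markers. Against VEH-Sham 5 these medians were 0.12 and 0.73. Of 7 tested forebrain markers all were below 0 in VEH-HI (median -0.13), and 5 of 7 lay below VEH-Sham 5. With equal array medians 5 of the 7 were above 0 (median 0.15), and after quantile normalization 2 were (median -0.11). As deposited 1 fell, the striatal signalling gene Ppp1r1b (-0.65, limma adjusted p = 0.00222), which was at -0.30 against VEH-Sham 5. The forebrain sums were 2901 to 4115 in EPO-HI, 2585 to 4149.5 in VEH-HI, 3649 in VEH-Sham 5 and 4110 to 5063 in VEH-Sham 1 to 4. All 4 tested oligodendrocyte markers were below 0 in VEH-HI (median -0.22). With equal array medians 2 of the 4 were above 0 (median 0.07), and after quantile normalization 0 were (median -0.20). As deposited 1 fell, the myelin gene Mobp (-0.85, limma adjusted p = 0.0267), which was at -0.79 against VEH-Sham 5. The oligodendrocyte sums were 3115 to 5366 in EPO-HI, 2913 to 5876 in VEH-HI, 4775 in VEH-Sham 5 and 3106 to 5021 in VEH-Sham 1 to 4. The part of these shifts in the receptor differences was not tested.

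After hypoxic ischemia with erythropoietin, kainate, NMDA, AMPA, metabotropic and GABA-A genes were among those lower than in sham. In EPO-HI against VEH-Sham, 8 of the 29 genes fell and 0 rose, against a background of 9.46% called lower and 8.86% called higher. They were Gabra2 (-0.47, limma adjusted p = 0.0353), Gabra5 (-0.44, 0.0204), Gria3 (-0.49, 0.0364), Grik1 (-0.34, 0.0424), Grik3 (-0.52, 0.0341), Grik4 (-0.53, 0.0284), Grin2d (-0.43, 0.0163) and Grm4 (-0.50, 0.0203). Second probe sets went against some of these calls: 2 of the 3 other tested Gabra2 probe sets were at 0.35 and 0.19, and the other Gria3 probe set was at 0.21. With the mean of a gene's probe sets the differences became -0.09 for Gabra2, -0.14 for Gria3 and -0.26 for Grik1. Their calls were then lost (limma adjusted p = 0.614, 0.411 and 0.178). Grin2b was not called from its brightest probe set. Of its 3 other tested probe sets 2 passed, at -0.50 and -0.66 (limma adjusted p = 0.0215 and 0.0189). The median of the 29 differences was -0.22, beside -0.01 over all genes, and against VEH-Sham 5 it was -0.05. Grin2d and Gabra5 lay farthest below VEH-Sham 5 among the 8, at -0.42 and -0.40, and Gria3 and Grik1 followed at -0.21 and -0.19. The differences of Gabra2 (-0.05), Grik4 (-0.11), Grm4 (-0.10) and Grik3 (0.02) from VEH-Sham 5 were smaller.

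Grin2d read 7.15, 6.96, 6.97, 7.22 and 6.88 in EPO-HI, and every one of these values lay below all 5 VEH-Sham arrays. Gabra5 read 9.66, 9.99, 10.08, 9.79 and 9.71 in EPO-HI, also below every VEH-Sham array. The EPO-HI arrays lay below every VEH-Sham array by a small margin for Grik4 (highest 6.20, lowest sham 6.21). The same held for Grm7 (highest 9.64, lowest sham 9.69), which was not called. How many of all genes had no overlap was not counted. Grik3, which encodes the presynaptic kainate subunit GluK3, read 7.99, 8.57, 8.91, 8.41 and 8.23 in EPO-HI, 8.63, 8.90, 8.78, 8.41 and 8.41 in VEH-HI, and 8.93, 9.32, 9.03 and 9.02 in VEH-Sham 1 to 4 with 8.40 in VEH-Sham 5. The sham value of Grik3 thus differed by 0.53 or more between VEH-Sham 5 and the other sham arrays. With VEH-Sham 5 as the only sham array, or with the array set as a block, 0 of the 29 genes passed (limma, background of lower calls 0.0%). Here too both fits give the same differences. Without VEH-Sham 5, 12 fell and 2 (Gabrb1 and Grik5) rose, against a background of 17.6% and 15.4%. With equal array medians 0 fell and 6 rose, against 2.54% and 40.7% over all genes; the median was then 0.11 over the 29 and 0.32 over all genes. This comparison and the one above share all VEH-Sham arrays. Without 1 other array at a time, the count of falling genes was 5, 3, 3 and 1 without VEH-Sham 1, 2, 3 and 4, and 4 and 3 without EPO-HI 11 and EPO-HI 15.

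The direct comparison of EPO-HI with VEH-HI gave 0 calls among the 29 receptor genes (limma, background 0.0% in each direction). Over all 27022 tested probe sets 0 passed as well, 1066 had an unadjusted p under 0.05, and the smallest adjusted p was 0.138. Of the receptor genes, 21 of 29 had a higher mean in EPO-HI, beside 6331 of 13168 over all genes, and their median difference was 0.21, beside -0.01. All 6 metabotropic glutamate receptor genes (median 0.23), 9 of 10 GABA-A genes (median 0.23) and 3 of 4 AMPA genes (median 0.21) were higher, while 2 of 5 kainate and 0 of 3 NMDA genes were (4 of 5 and 2 of 3 with equal array medians), and the 3 medians above 0 kept their sign under quantile normalization and equal array medians. These genes share arrays and are not independent of each other, so the counts describe the list and carry no test.

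The 5 genes with the smallest unadjusted p in EPO-HI against VEH-HI were Grm3, Gabrb2, Gabra2, Grik2 and Gabrg1. Grm3 read 9.31, 9.41, 9.63, 9.51 and 9.43 in EPO-HI, against 8.81, 9.08, 9.23, 9.22 and 9.58 in VEH-HI. VEH-HI 10 lay within the EPO-HI arrays and the other 4 VEH-HI arrays lay below them, and the difference was 0.27 (SE 0.11). Gabrb2, which encodes the widely used beta-2 subunit, read 10.37, 10.31, 10.26, 10.25 and 10.12 in EPO-HI, against 10.04, 9.42, 10.29, 10.14 and 9.98 in VEH-HI, a difference of 0.29 (SE 0.12). VEH-HI 7 was the lowest array, and the other 4 tested Gabrb2 probe sets were higher in EPO-HI too. Gabra2 read 9.59, 9.83, 9.83, 9.85 and 9.48 in EPO-HI, against 9.56, 8.98, 9.84, 9.51 and 9.08 in VEH-HI, a difference of 0.32 (SE 0.15). The groups overlapped, and its 3 other tested probe sets were higher in EPO-HI as well. Grik2, which encodes GluK2, read 7.60, 7.38, 7.70, 7.92 and 7.57 in EPO-HI, against 7.21, 7.19, 7.58, 7.52 and 7.47 in VEH-HI, a difference of 0.24 (SE 0.12). Gabrg1, which encodes the gamma-1 subunit, read 8.81, 9.24, 9.05, 9.17 and 9.08 in EPO-HI, against 8.97, 8.73, 8.67, 9.25 and 8.45 in VEH-HI, a difference of 0.25 (SE 0.13). In limma the unadjusted p-values were 0.0226 for Grm3, 0.0233 for Gabrb2, 0.0449 for Gabra2, 0.0543 for Grik2 and 0.0558 for Gabrg1, and every adjusted p exceeded 0.99.

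**Figure D4:**
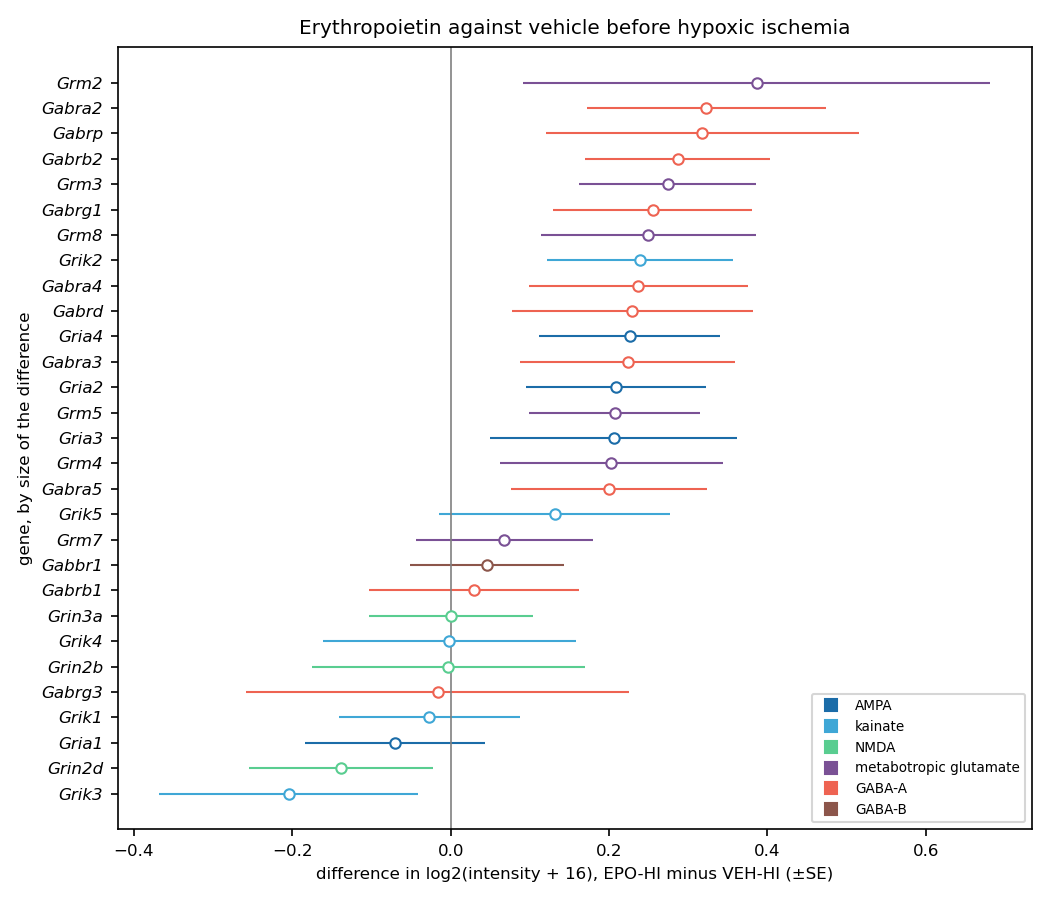
Difference in log2(intensity + 16) between EPO-HI and VEH-HI for the 29 tested genes, sorted by size, with its SE (n = 5 each) and colours for the receptor families. Of the 29 differences 21 were above 0, and 0 passed the limma threshold.

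The other genes with lower levels in VEH-HI stood as follows in EPO-HI. They were called for low values on the VEH-HI arrays, and these differences use the same VEH-HI arrays. That choice by itself favours higher means in EPO-HI, so the direction of these differences carries no test. Gria2 read 10.69, 10.77, 10.78, 10.68 and 10.48 in EPO-HI, 0.21 above the VEH-HI mean (SE 0.11), and Gria4 read 8.43, 8.39, 8.80, 8.69 and 8.59, 0.23 above it (SE 0.11). Gria3 read 8.64, 8.75, 8.56, 8.87 and 8.21 in EPO-HI, 0.21 above the VEH-HI mean (SE 0.16). Neither these AMPA genes nor the following metabotropic genes passed. Grm5 read 9.68, 9.87, 10.12, 10.06 and 9.72 in EPO-HI (difference 0.21, SE 0.11), and Grm4 read 7.14, 7.02, 7.14, 7.32 and 7.12 (0.20, SE 0.14). Grm2 read 6.66, 6.09, 7.01, 6.86 and 6.42 in EPO-HI (difference 0.39, SE 0.30), and Grm7 read 9.40, 9.64, 9.51, 9.61 and 9.37 (0.07, SE 0.11). The wide SE of Grm2 reflects VEH-HI 9, which lay 1.70 below the next array of its group. Gabrd read 6.12, 6.24, 5.92, 5.96 and 6.04 in EPO-HI (difference 0.23, SE 0.15), and Grik4 read 6.20, 6.18, 6.16, 6.16 and 5.83 (-0.00, SE 0.16). The ratio of Gria2 to its partners differed by 0.09 between EPO-HI and VEH-HI (exact two-sided permutation p = 0.349), and that of Grin2a to Grin2b by 0.02 (exact two-sided permutation p = 0.929).

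The injured arrays differed in how strongly glial genes had responded, which allowed a comparison free of the sham arrays. A glial reaction score was taken as the mean log2 level of 15 genes of reactive astrocytes, microglia and cytokine signalling, among them Gfap, Vim, Timp1 and Ccl2. All 15 rose in VEH-HI and in EPO-HI against VEH-Sham, and the score was 7.38 to 8.50 in EPO-HI, 7.30 to 9.00 in VEH-HI, 6.40 in VEH-Sham 5 and 6.32 to 6.51 in VEH-Sham 1 to 4. In a limma fit over the 10 injured arrays with a term for the group, 1 of the 29 receptor genes (Gabra5) fell with the score and 0 rose, against a background of 0.122% of all genes falling and 1.17% rising with it.

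Gabra5 fell by 0.39 per unit of score (SE 0.09, limma adjusted p = 0.0415). Gabra5 was chosen for its slope on these same arrays, so the following correlations describe that slope and carry no test. Pearson's r over the 10 arrays was -0.86 and Spearman's rho was -0.82, and r was -0.79 without VEH-HI 6 and VEH-HI 10, the arrays farthest from the median score. The call was lost without any 1 of 8 of the 10 arrays, with limma adjusted p between 0.0506 (the lowest of the 8) and 0.559 (without VEH-HI 6), while the slope stayed between -0.42 and -0.29. It was also lost under quantile normalization, without a filter on dim probe sets and without the eBayes trend (limma adjusted p = 0.0565, 0.0707 and 0.144). Grm3 followed with a slope of -0.31 (SE 0.08, limma adjusted p = 0.117) and Gabra4, which encodes the alpha-4 subunit, with -0.35 (SE 0.10, limma adjusted p = 0.138), and neither passed. The slope of Gria1 was 0.05 (SE 0.10, limma adjusted p = 0.905) and that of Gabra2 was 0.03 (SE 0.14, limma adjusted p = 0.965). Over the 29 genes 19 slopes were below 0, with a median of -0.03, beside 6271 of 13168 over all genes. All 12 neuron markers had slopes below 0 (median -0.18) and 0 of them passed. All 7 forebrain markers also had slopes below 0 (median -0.28), with Emx1 and Neurod6 at -0.36 and Bcl11b at -0.31, and 0 of them passed. The part of neither list in the Gabra5 slope was tested.

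**Figure D5:**
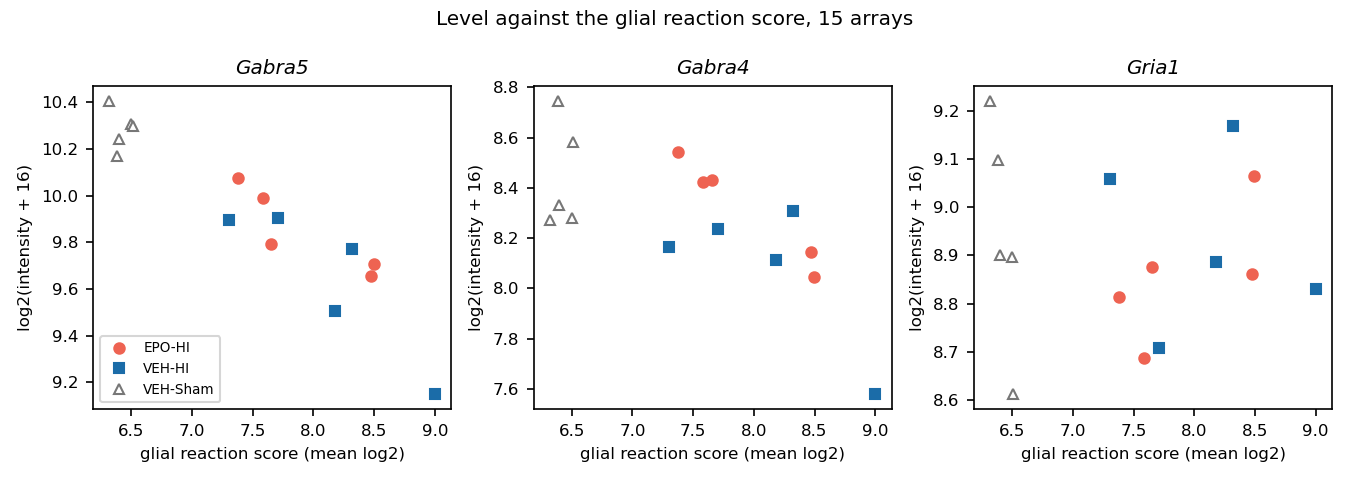
Level of Gabra5, Gabra4 and Gria1 in log2(intensity + 16) against the glial reaction score on all 15 arrays, with the groups in different symbols. Among the 10 injured arrays Gabra5 was lowest (9.15) on VEH-HI 6, which had the highest score (9.00), and the slope of -0.39 was fitted to those 10 arrays only.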

How the data were processed

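The authors deposited linear intensities, 1 per probe set and array; from the values, each array has a mean of 150.0 after 2% of probe sets are trimmed at each end. The sources used here do not name the software that made these deposited intensities. All 15 columns were matched to samples by name, and 64 control probe sets were left out. Genes were named from a platform annotation table updated against GRCm38.p6 names, where 34945 of 45037 probe sets had 1 symbol.

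Intensities were converted to log2(intensity + 16), which understates changes of dim genes, and the brightest 60% (27022 probe sets, mean of at least 5.46) were tested. One limma 3.58.1 model with 3 group means (lmFit, eBayes with trend, R 4.3.3) was fitted on all arrays, with two-sided tests and Benjamini-Hochberg adjustment over all tested probe sets at 0.05. The fit was also tested on simulated data. The score slope used the 10 injured arrays with a group term, and log ratios used exact permutation over all splits of the arrays. Correlations of Gabra5 with the score were computed with scipy 1.17.1. The number of arrays, 5 in each group, limits the precision.

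Array values were given in full for the 14 called genes with the smallest p, for Gabbr1 as the GABA-B gene, and for the 5 genes with the smallest p between EPO-HI and VEH-HI; Grin3b and Gabre were added after their values were seen. The genes, the companion, marker and score lists, and the division of the sham arrays were chosen with earlier results of these data known. Alternatives were pseudocounts of 1 and 64, 2 other scalings, filters, eBayes without trend, the array set as a block or restricted to the larger set, 2 groups only, the mean of a gene's probe sets, and each array left out.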

Additional observations from a re-analysis of the deposited data

Results flagged for a closer look

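Within each group of 5 arrays, the highest or lowest value of 18 genes was compared with the rest by Dixon's criterion (critical value for 5 samples), in 54 groups of values. Of these groups 3 had a value that stood apart, and chance gives about 1 in 20. Grm2 read 4.77 on VEH-HI 9, while the other VEH-HI arrays read 6.47 to 6.69. Grm3 read 9.73 on VEH-Sham 5, while VEH-Sham 1 to 4 read 9.49 to 9.56. Grik4 read 5.83 on EPO-HI 15, while the other EPO-HI arrays read 6.16 to 6.20. The cause of these values was not tested.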

How the results depend on the processing

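No paired analysis was possible because the replicate numbers run through the series and no groups share a number, and 1 planned ratio was not run. In VEH-HI against VEH-Sham, equal array medians gave 3 receptor genes lower and 2 higher, and the array block and the larger array set gave 0 lower. In EPO-HI against VEH-Sham they gave 0 lower and 6 higher with equal medians, 0 lower with the block or the larger set, and 4 lower without the trend. Genes falling with the score numbered 0 under quantile normalization, without a filter and without the trend, and 2 with equal medians and with means of probe sets. Auxiliary genes numbered 1 higher and 1 lower with equal medians, and 0 lower with the block or larger set. Anchor and partner genes numbered 5 higher and 1 lower with equal medians, 0 and 0 with the block or larger set, and 1 lower with 2 groups only. Transporter and synthesis genes numbered 4 higher and 0 lower with equal medians, 2 higher without a filter, and 0 and 0 with the block or larger set. Over all genes, equal medians gave 2.87% lower and 33.6% higher in VEH-HI against VEH-Sham, and 2.54% and 40.7% in EPO-HI against VEH-Sham. The block and the larger set give the same differences against sham and are not separate checks. With fewer sham arrays (1 in the larger set) the tests had less to work with, and the other causes were not tested.

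Leaving out 1 array gave 8 to 18 genes lower and 0 to 1 higher in VEH-HI against VEH-Sham (8 without VEH-HI 6, 9 without VEH-Sham 3), 1 to 12 lower and 0 to 2 higher in EPO-HI against VEH-Sham, 0 in EPO-HI against VEH-HI, and 0 to 2 falling with the score (2 without VEH-HI 8). It gave 3 to 6 auxiliary genes lower, 1 to 3 anchor and partner genes higher and 1 to 4 lower, and 0 to 3 transporter and synthesis genes higher and 0 to 4 lower. Calls of Gabra2, Gabra5, Gria2, Gria3, Grm2 and Grm4 in VEH-HI held without any 1 array, while Gabrp and Grm8 lost theirs without any 1 of 11 arrays, Grm7 and Gabrd of 5, Grik4 of 4 and Grm5 of 2 (VEH-Sham 3 and VEH-HI 6), Gria4 without VEH-Sham 2 and Grm3 without VEH-HI 6. In EPO-HI against VEH-Sham, Grin2d held throughout, Gabra5 (VEH-Sham 4 and EPO-HI 11) and Grm4 (VEH-Sham 3 and 4) lost their calls without any 1 of 2 arrays, Grik4 of 4, Gabra2 of 5, and Gria3, Grik1 and Grik3 of 7. The Gria2 ratio ranged over -0.15 to -0.04 (VEH-HI against VEH-Sham), 0.04 to 0.14 (EPO-HI against VEH-HI) and -0.0448 to 0.0315 (EPO-HI against VEH-Sham), and the Grin2a ratio over 0.87 to 1.23, -0.21 to 0.13 and 0.78 to 1.25.

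Signs turned for the Gria2 ratio in EPO-HI against VEH-Sham (0.00289 with a pseudocount of 1, 0.00646 with equal medians, 0.149 in the larger set) and in VEH-HI against VEH-Sham (0.0608 in the larger set), and for the Grin2a ratio in EPO-HI against VEH-HI (-0.00308 with a pseudocount of 64). They also turned for Grik3 in EPO-HI against VEH-Sham (0.0226 with the block and in the larger set), Gabrp in VEH-HI (0.0525 in both) and Gabbr1 in VEH-HI (-0.0266 with quantile normalization, -0.20 with the block and in the larger set, -0.14 with means of probe sets). The lowest signals limit the dim genes most, since 8 of 37 lay under the brightness limit and were tested only without the filter.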
